A study of Mus musculus with 12 samples.

Results

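Brain-derived neurotrophic factor, encoded by Bdnf, and 9 genes that carry or accompany its signal in neurons were followed in mouse hippocampus after knockdown of Hp1bp3, which encodes a heterochromatin-binding protein related to the linker histones. The 10 genes were Bdnf, Ntrk2, Ntrk3, Vgf, Nptx2, Homer1, Inhba, Pcsk1, Nrn1 and Rheb, and they were taken by their symbols from a count table of 22236 genes. All 10 passed the filter on low counts, which left 15853 genes to be tested. The table holds mRNA sequencing of the whole hippocampus of 12 male mice aged 3 to 5 months at injection, from the inbred strains B6 (C57BL/6J) and D2 (DBA/2J). Mice of both strains were injected in the dorsal hippocampus of each side with an adeno-associated virus. Its hairpin RNA was directed at Hp1bp3 (AAV9-shRNA-Hp1bp3, KD) or was scrambled (AAV-scrmb-shRNA, Ctrl). The hippocampus was taken at least 6 weeks later, and each of the 4 groups held 3 mice. All groups therefore share surgery, virus and a hairpin. The libraries also take in hippocampal tissue away from the injection, and the cells that the virus entered are not given in the sources used here. The comparisons ask whether these plasticity genes move with Hp1bp3 knockdown, and whether they do so on both genetic backgrounds.

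Neurotrophins are secreted by neurons and bind Trk receptor tyrosine kinases on their neighbours. TrkB, the product of Ntrk2, is the receptor for BDNF, and TrkC, the product of Ntrk3, is the receptor for neurotrophin-3. Bdnf transcription follows synaptic activity and calcium entry, and BDNF is known in the hippocampus for its part in long-term potentiation and memory. Several of the other genes are also induced by activity and act outside the nucleus as effectors. Vgf encodes a precursor of secreted neuropeptides, Nptx2 a pentraxin that gathers AMPA receptors at synapses, Inhba a subunit of activin, and Nrn1 a membrane-anchored protein that promotes neurite growth. Pcsk1 encodes a convertase that cuts hormone and neuropeptide precursors in secretory granules. Homer1 encodes a scaffold of the postsynaptic density, and Rheb a small GTPase that switches on the kinase complex mTORC1.

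Many activity-regulated promoters hold the cAMP response element (CRE), TGACGTCA, or its shorter core, TGACG or CGTCA on the strand read, and both are known to be bound by CREB. RefSeq promoter windows (GRCm38.p6) were matched for 6 of the 10 genes, with 13 start sites in all. The stretch of 100 bases before each start was searched. It held a core at 3 genes, namely Bdnf at 1 of 7 starts, Homer1 at 1 of 2 and Pcsk1 at its only start. Among all 32851 such stretches 10.5% held a core and 1.15% a full element. The 3 stretches with a match are shown, and a link between them and the levels described below was not tested. Capitals mark the cores, read on the strand of the gene, and the overlapping pair of cores in Pcsk1 forms the full element.
Bdnf, an internal start, chr2:109692336-109692435, plus strand: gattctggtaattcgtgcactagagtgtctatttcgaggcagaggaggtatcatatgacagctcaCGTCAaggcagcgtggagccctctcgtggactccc
Homer1, chr13:93303657-93303756, plus strand: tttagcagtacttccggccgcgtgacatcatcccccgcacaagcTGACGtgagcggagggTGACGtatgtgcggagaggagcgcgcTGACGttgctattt
Pcsk1, chr13:75089757-75089825, plus strand: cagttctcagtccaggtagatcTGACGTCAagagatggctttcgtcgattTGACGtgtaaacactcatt
The Bdnf core begins 35 bases before the start, at position -35. The cores of Homer1 begin at -56, -40 and -14, and those of Pcsk1 at -78, -75 and -50. Positions count back from the RefSeq start. The Pcsk1 stretch was trimmed to 69 bases because GENCODE M21 places the first exon upstream of that start, and the stretch of Rheb lay wholly in an annotated exon and was not searched. These matches describe the letters only, and the counts do not separate the transcripts of different starts.

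Libraries held 18213084 to 39420219 expected counts, and levels below are CPM, counts scaled to the library total with TMM factors. These values are not divided by transcript length, so levels are compared between libraries and never between genes. The targeted gene was examined first. Hp1bp3 was measured at 308, 294 and 310.1 CPM in B6 Ctrl and at 185, 182 and 259 CPM in B6 KD, so that the groups did not overlap. The D2 libraries gave 226, 215 and 234 CPM in Ctrl and 177, 163 and 229.5 CPM in KD. The library labelled D2 KD 3 thus lay inside the range of D2 Ctrl and goes against its label. The log2 change of Hp1bp3 was -0.54 ± 0.15 (SE) in B6 and -0.25 ± 0.15 in D2, and neither passed edgeR's quasi-likelihood test after Benjamini-Hochberg adjustment over all genes (adjusted p = 0.076 and 1). Choroid plexus transcripts split the libraries across all groups, with Ttr between 26.9 and 139 CPM in 5 libraries and between 2404 and 4568 CPM in 7. In bulk tissue a change in the number of cells of a type and a change in RNA per cell cannot be told apart.

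Bdnf was higher in all 3 B6 KD libraries than in any B6 Ctrl library. It lies on chromosome 2 (GRCm38, 109674700 to 109727007, plus strand; ENSMUSG00000048482). Its level was 47.3, 47.3 and 55.8 CPM in B6 Ctrl and 71.2, 80.1 and 168 CPM in B6 KD. D2 mice had 40.14, 38.6 and 51.6 CPM in Ctrl and 82.1, 70.2 and 43.4 CPM in KD. The first and second of these D2 KD libraries lay above every D2 Ctrl library, and the third, the library labelled D2 KD 3, lay within their range. Relative to the Ctrl mean of their strain the 6 KD libraries stood at 1.42, 1.60, 3.35, 1.89, 1.62 and 0.998 times. The group means ranked B6 KD first with 106 ± 53.6 CPM (SD, n = 3), then D2 KD with 65.2 ± 19.8, B6 Ctrl with 50.1 ± 4.93 and D2 Ctrl with 43.4 ± 7.08. Each neighbouring pair in this order overlapped in its libraries.

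The log2 change of Bdnf was 1.09 ± 0.32 in B6, 0.59 ± 0.32 in D2 and 0.84 ± 0.22 averaged over the strains. By edgeR's quasi-likelihood test none of these passed after adjustment (adjusted p = 0.0864, 1 and 0.0893). DESeq2 called Bdnf higher in B6 (adjusted p = 0.0121) and averaged over strains (adjusted p = 0.00703). In these comparisons it called 1688 and 1241 of all 15853 genes. The adjusted p in B6 ran from 0.0121 to 0.171 over the settings that used all libraries. B6 KD 3 set the size of the change: without it, the estimate in B6 was 0.56 ± 0.22 (adjusted p = 0.172). Leaving out the library labelled D2 KD 3 gave a change of 0.81 ± 0.31 in D2 (adjusted p = 0.582) and 0.95 ± 0.21 averaged over strains, which edgeR then called (adjusted p = 0.038). Other libraries moved these estimates down: the D2 change was 0.37 without D2 KD 1, and the averaged change was 0.57 without B6 KD 3. Neither was called by edgeR. The difference between the strains was -0.50 ± 0.44 (D2 change minus B6 change; adjusted p = 0.961). It was 0.0076 without B6 KD 3 (adjusted p of 0.855 to 1.00 over the libraries left out in turn).

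Within B6, Bdnf was higher in KD on both sides of the choroid plexus split. Among libraries with few such transcripts, B6 KD 1 had 71.2 CPM against 47.3 and 55.8 in B6 Ctrl 1 and B6 Ctrl 3, and D2 KD 2 had 70.2 against 40.14 in D2 Ctrl 1. Among those with many, B6 KD 2 and B6 KD 3 had 80.1 and 168 CPM against 47.3 in B6 Ctrl 2, whereas D2 KD 1 and the library labelled D2 KD 3 had 82.1 and 43.4 CPM against 38.6 and 51.6 in D2 Ctrl 2 and D2 Ctrl 3. Fitted with the choroid plexus score as a covariate, the change in B6 was 1.00 ± 0.35 (adjusted p = 0.171). Excitatory neuron markers (9 of 9 measured, none at 0) summed to 9671 to 10629 CPM in B6 Ctrl and 7759 to 9310 CPM in B6 KD. CA3 pyramidal cell markers summed to 446 to 495 CPM in B6 Ctrl and to 553, 493 and 754 CPM in B6 KD 1, 2 and 3. Interneuron markers stood at 763 to 857 CPM in B6 Ctrl and at 629, 599 and 919 CPM in those KD libraries. In D2 the CA3 sums were 498 to 868 CPM in Ctrl and 811, 781 and 471 CPM in KD. Such sums weigh the most abundant markers most. Gene by gene, 3 of the 5 CA3 markers had an estimate above 0 and 2 below it in each strain. Their median log2 change was 0.08 in B6 and 0.05 in D2. The part of these cell types in the values of Bdnf was not tested. Interferon response genes were also higher in B6 KD than in B6 Ctrl. Among the B6 KD libraries their sum was lowest in B6 KD 3, where Bdnf was highest. Their summed level is given further below.

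**Figure D1:**
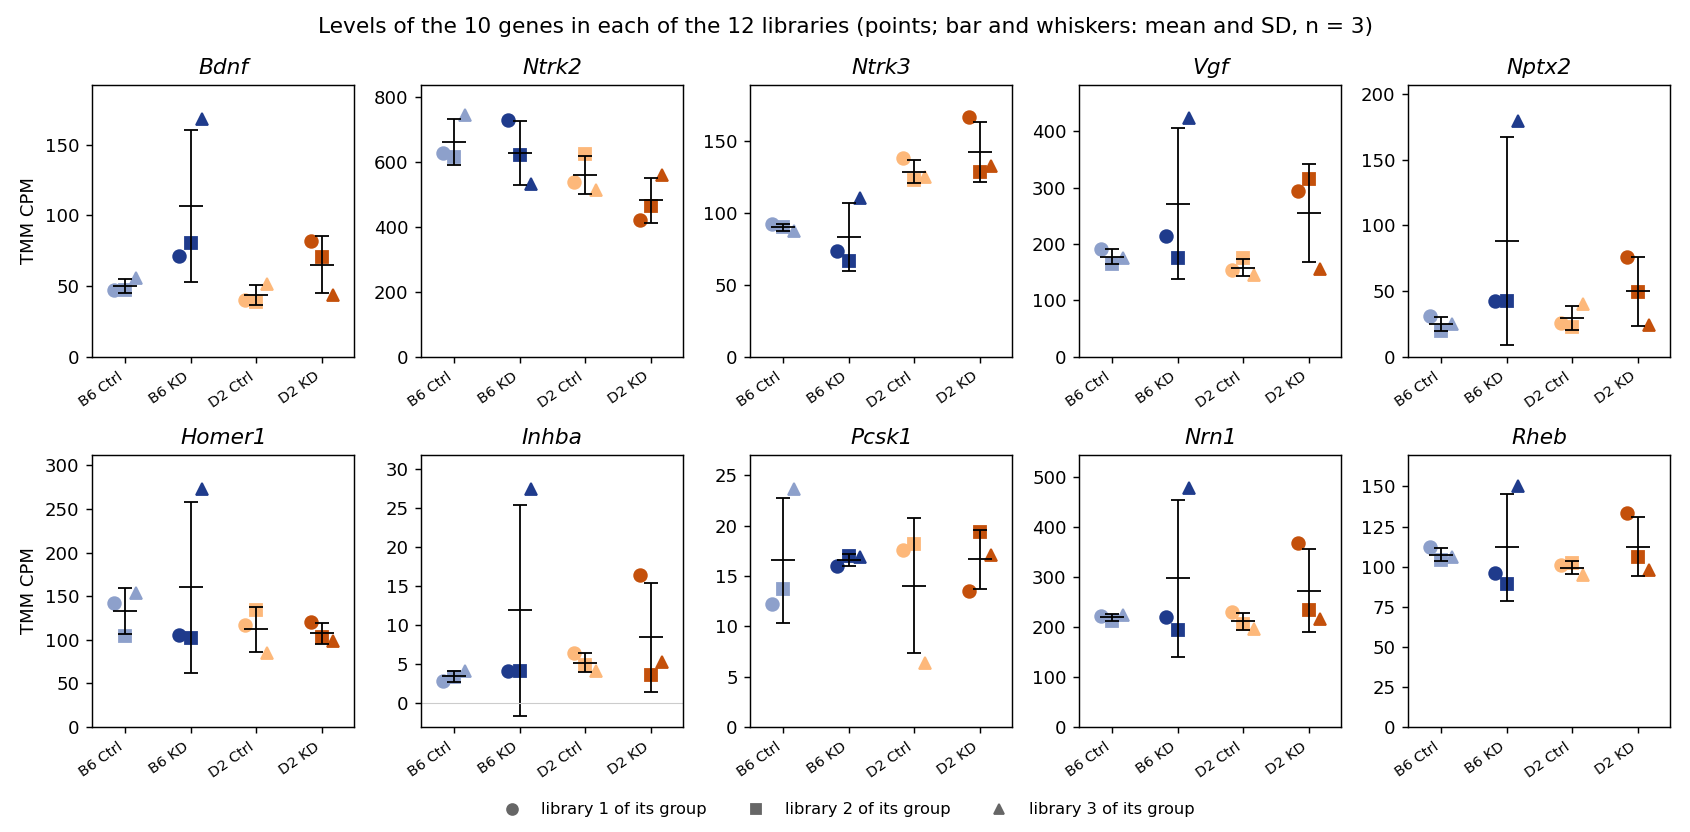
Level of each of the 10 genes in TMM CPM (vertical axes, which include 0) in the 4 groups (horizontal axes); points are single libraries, with the symbol giving the library number, and the bar and whiskers are the mean and SD of 3 libraries. B6 KD 3 is the highest of all 12 libraries for 7 of the 10 genes, among them Bdnf at 168 CPM, while the D2 groups of Ntrk3 sit above the B6 groups.

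None of the 10 genes was called in a comparison of KD with Ctrl by edgeR's quasi-likelihood test. In B6 the test called 418 of 15853 genes (2.64%), of which 1.76% of the table were higher and 0.877% lower. At an unadjusted p under 0.05 there were 3262 of the 15853 genes and 3 of the 10, namely Bdnf, Nptx2 and Inhba. That count of 418 was itself unstable: it was 1688 with DESeq2, 0 with the library total or the choroid plexus score as a covariate, 790 without B6 KD 3 and 0 without any 1 of B6 Ctrl 1, B6 Ctrl 3, B6 KD 1, B6 KD 2 or D2 Ctrl 1. In D2 the test called 0% of all genes, with 452 at an unadjusted p under 0.05 and none of the 10. DESeq2 called 1 gene there, and limma-voom and the newer quasi-likelihood method of edgeR called 0. Averaged over the strains edgeR again called 0%, with 3046 genes and 4 of the 10 (Bdnf, Nptx2, Inhba and Vgf) at an unadjusted p under 0.05. There DESeq2 called 1241 genes, limma-voom 0 and the newer edgeR method 15. For the strain by treatment interaction the figures were 0%, 937 genes and none of the 10, with 11, 0 and 0 genes called by those other methods. The median log2 change of the 10 genes was 0.35 in B6 and 0.31 in D2, beside 0.00 for all tested genes in each strain. These medians were not shared by all libraries. The median log2 ratio of the 10 genes to the Ctrl mean was 0.07, -0.05 and 1.08 in B6 KD 1, 2 and 3. It was 0.61, 0.12 and -0.002 in D2 KD 1, 2 and 3.

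The libraries were also compared without a model. In B6, Bdnf and Nptx2 were higher in every KD library than in any Ctrl library and none of the 10 was lower, beside 27.8% of all tested genes that were separated in either direction and 13.9% that were separated upwards. In D2 none of the 10 separated, beside 5.96% of all tested genes (2.93% upwards and 3.03% downwards).

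The secreted effectors followed Bdnf to different degrees. Nptx2 (chromosome 5, 144545902 to 144557478) was the closest. Its level was 30.7, 19.7 and 24.9 CPM in B6 Ctrl and 42.4, 42.2 and 179.6 CPM in B6 KD. In the D2 groups Nptx2 stood at 25.6, 22.8 and 40.3 CPM in Ctrl and 76.1, 49.4 and 24.0 CPM in KD. As for Bdnf, every B6 KD library and the first and second D2 KD libraries lay above all Ctrl libraries of their strain, and D2 KD 3 did not. The log2 change was 1.81 ± 0.58 in B6 and 0.75 ± 0.57 in D2 (edgeR adjusted p = 0.109 and 1). Without B6 KD 3 the change in B6 was 0.72 ± 0.40 (adjusted p = 0.325), and without D2 KD 1 the change in D2 was 0.30.

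Vgf (chromosome 5, 137026392 to 137033351) was higher in some KD libraries of each strain. In D2 it stood at 154, 175 and 145 CPM in Ctrl and at 294, 314 and 156 CPM in KD, so that all but the library labelled D2 KD 3 were above the Ctrl range. In B6 it was 192, 165 and 176 CPM in Ctrl and 214, 175 and 424 CPM in KD. B6 KD 2 lay within the B6 Ctrl range, so the groups overlapped. The log2 change was 0.61 ± 0.32 in B6 and 0.69 ± 0.32 in D2 (edgeR adjusted p = 0.304 and 1). It was 0.11 in B6 without B6 KD 3, and 0.95 ± 0.30 in D2 without the library labelled D2 KD 3 (adjusted p = 0.522).

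Inhba and Nrn1 were high in single libraries. Inhba (chromosome 13, 16011851 to 16031621) was 2.86, 3.29 and 4.16 CPM in B6 Ctrl and 4.14, 4.08 and 27.4 CPM in B6 KD. For D2 the levels were 6.47, 4.92 and 4.11 CPM in Ctrl and 16.5, 3.58 and 5.25 CPM in KD. Thus 1 library in each strain, B6 KD 3 and D2 KD 1, stood 7.98 and 3.18 times above its Ctrl mean, and the other KD libraries stood at 0.692 to 1.21 times. The log2 change in B6 was 1.80 ± 0.76 (adjusted p = 0.212), and 0.23 without B6 KD 3. In D2 it was 0.70 ± 0.74 (adjusted p = 1), and -0.24 without D2 KD 1.

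Nrn1 (chromosome 13, 36725361 to 36735131, minus strand) showed the same libraries. Its level was 222, 212 and 224 CPM in B6 Ctrl and 220.2, 193 and 477 CPM in B6 KD. The D2 mice showed 230.5, 207 and 197 CPM in Ctrl and 368, 234 and 215 CPM in KD. B6 KD 3 was again the highest library and D2 KD 1 the second highest, and no other KD library exceeded its Ctrl mean by more than 1.11 times. The log2 change was 0.44 ± 0.30 in B6 and 0.37 ± 0.30 in D2 (edgeR adjusted p = 0.449 and 1), and without B6 KD 3 the B6 value was -0.11. Nrn1 overlaps Fars2 on the other strand, and since the strand setting of the counting is not given in the sources used here, reads of the 2 genes cannot be told apart.

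Pcsk1, whose upstream stretch holds the full element, was flat in B6. It lies on chromosome 13 (75089826 to 75134861) and was 12.2, 13.7 and 23.7 CPM in B6 Ctrl and 15.9, 17.0 and 16.9 CPM in B6 KD. All 3 KD libraries lay within the Ctrl range, B6 KD 3 included. Pcsk1 in D2 was at 17.6, 18.2 and 6.30 CPM in Ctrl and 13.5, 19.3 and 17.1 CPM in KD. The log2 change was 0.01 ± 0.35 in B6 and 0.25 ± 0.36 in D2 (edgeR adjusted p = 0.998 and 1). The approximate 95% interval of the B6 change ran from -0.69 to 0.70, so a moderate change either way was not detectable with these libraries. The interval was taken from a normal quantile and is narrower than the F-test implies with so few libraries.

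Neither receptor gene was called for treatment by edgeR. Ntrk2 (chromosome 13, 58806569 to 59133970) was 628, 617 and 745 CPM in B6 Ctrl and 731, 623 and 534 CPM in B6 KD. D2 had 539.8, 626 and 515 CPM in Ctrl and 422, 463 and 559 CPM in KD. The lowest of the B6 libraries was B6 KD 3 and the lowest of the D2 libraries was D2 KD 1, the libraries in which Bdnf was highest in each strain. The log2 change of Ntrk2 was -0.08 ± 0.14 in B6 and -0.22 ± 0.14 in D2 (edgeR adjusted p = 0.804 and 1). With the library labelled D2 KD 3 left out it was -0.34 ± 0.15 in D2 (adjusted p = 0.639). These counts cover the whole gene and do not separate full-length TrkB from the truncated receptor.

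Ntrk3 was the 1 gene of the 10 that edgeR's quasi-likelihood test called with all libraries, and the call was between the strains. It lies on chromosome 7 (78175959 to 78738012, minus strand) and was 92.4, 90.3 and 87.2 CPM in B6 Ctrl against 138, 123 and 125 CPM in D2 Ctrl. In KD it was 73.5, 66.4 and 110.2 CPM in B6 against 167, 129 and 132 CPM in D2. All 6 D2 libraries lay above all 6 B6 libraries. The log2 difference of D2 against B6 was 0.77 ± 0.17 in KD, which edgeR called (adjusted p = 0.00981), and 0.52 ± 0.17 in Ctrl, which it did not (adjusted p = 0.0721). In KD the call held when any 1 library was left out (adjusted p from 0.000245 to 0.0413). In Ctrl the adjusted p was 0.0264 by DESeq2, 0.00649 without B6 KD 3 and 0.0499 without B6 KD 2, and above 0.05 without any other library. Between these comparisons the difference itself was 0.25 ± 0.24 (adjusted p = 0.963).

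Among all genes 15.0% were called between the strains in KD (5.92% higher in D2 and 9.05% lower) and 14.0% in Ctrl (5.23% higher and 8.75% lower), so 1 call in 10 genes was near the background. By separation of the libraries, 1 of the 10 genes (Ntrk3) stood apart in KD, beside 28.2% of all tested genes (12.6% upwards and 15.7% downwards), and 2 (Ntrk3 upwards and Rheb downwards) in Ctrl, beside 31.7% (13.9% and 17.9%). Alignment used a separate genome for each strain, and the part of the reference in these differences was not tested. Within B6 the KD libraries lay on both sides of Ctrl: B6 KD 1 and B6 KD 2 lay below all B6 Ctrl libraries and B6 KD 3 lay above them. In D2, D2 KD 1 lay above all Ctrl libraries, so that Ntrk3 was above Ctrl in the library of each strain with the highest Bdnf (1.22 times in B6 KD 3 and 1.29 times in D2 KD 1). The log2 change in B6 was -0.11 ± 0.17 with all libraries (adjusted p = 0.76) and -0.39 ± 0.12 without B6 KD 3 (adjusted p = 0.085). With D2 KD 1 left out as well, it was -0.39 ± 0.09 and was called (adjusted p = 0.0459).

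The postsynaptic scaffold and the GTPase separated B6 KD 3 from the other libraries of its group. Homer1 (chromosome 13, 93299635 to 93405129) was 142, 104 and 154 CPM in B6 Ctrl and 105, 102 and 273 CPM in B6 KD. Homer1 in D2 measured 116, 134 and 84.4 CPM in Ctrl and 121, 103 and 98.1 CPM in KD, with every KD library inside the Ctrl range. Its log2 change in B6 was 0.27 ± 0.34 (adjusted p = 0.704) and turned to -0.39 ± 0.21 without B6 KD 3 (adjusted p = 0.308). In D2 it was -0.06 ± 0.34 (adjusted p = 1). The counts do not separate the short, activity-induced form of Homer1 from the long scaffold forms.

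Rheb (chromosome 5, 24802823 to 24842624, minus strand) was 112, 104 and 106 CPM in B6 Ctrl and 96.1, 89.3 and 151 CPM in B6 KD. B6 KD 1 and B6 KD 2 were thus below every B6 Ctrl library and B6 KD 3 above. Rheb in D2 measured 101, 102 and 95.0 CPM in Ctrl and 133, 106 and 98.2 CPM in KD, where D2 KD 1 was the highest. Its log2 change was 0.06 ± 0.18 in B6 and 0.18 ± 0.18 in D2 (edgeR adjusted p = 0.882 and 1), and without B6 KD 3 the B6 value was -0.24 ± 0.12 (adjusted p = 0.267).

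**Figure D2:**
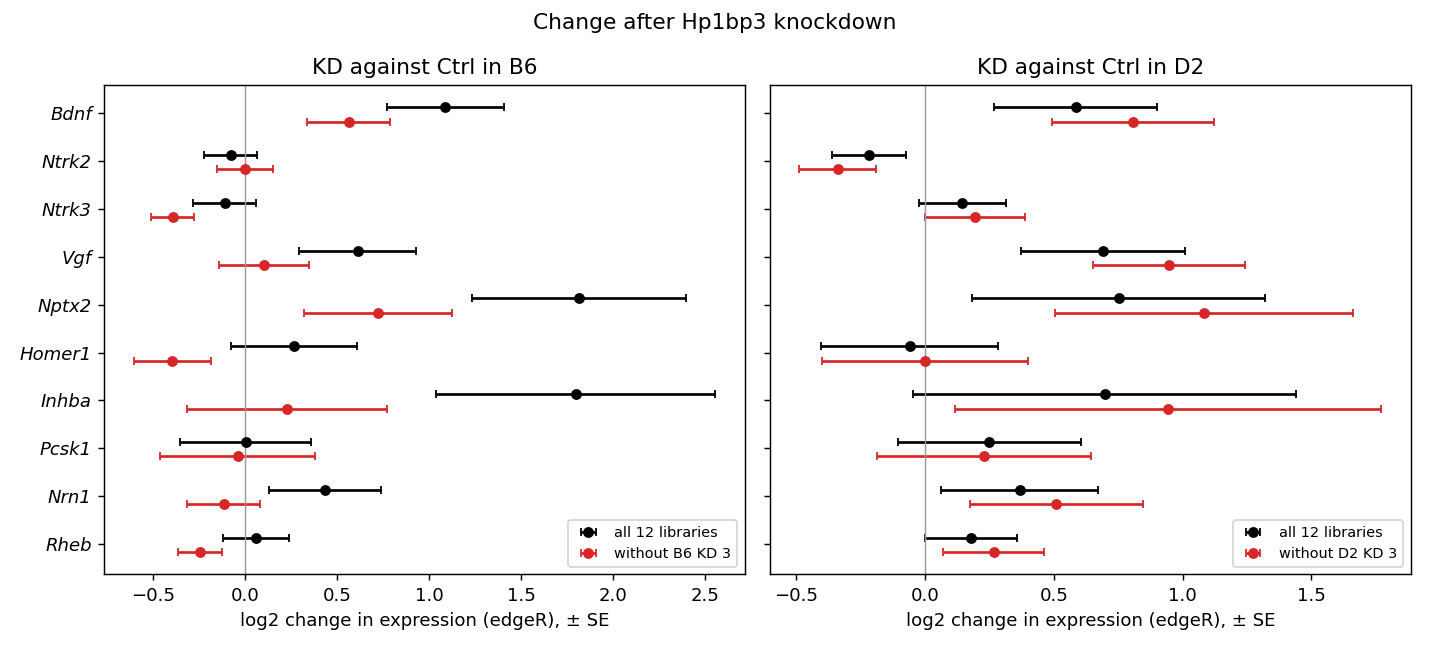
Log2 change of KD against Ctrl from edgeR (horizontal axes, points with SE) for the 10 genes (rows) in B6 (left) and D2 (right), with all 12 libraries (black) and with 1 library left out (red; B6 KD 3 on the left, D2 KD 3 on the right). In B6 the estimate of Bdnf moves from 1.09 to 0.56 and those of Homer1, Nrn1 and Rheb cross 0 when B6 KD 3 is left out.

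Counted by library, the 10 genes divided the KD mice into unlike sets. In B6 KD 3, 8 of the 10 genes lay above all B6 Ctrl libraries and 1 (Ntrk2) below, beside 37.8% and 36.8% of all tested genes. In D2 KD 1 the counts were 7 above and 1 below, beside 26.6% and 24.3%, and in D2 KD 2 they were 6 and 2, beside 28.5% and 23.8%. In B6 KD 1 they were 3 and 2 (30.1% and 32.2%), and in B6 KD 2 they were 2 and 4 (32.9% and 35.7%). In the library labelled D2 KD 3 all 10 genes lay within the range of D2 Ctrl, beside 17.7% of all tested genes above it and 18.8% below. B6 KD 3 was the highest of the 12 libraries for 7 of the 10 genes (Bdnf, Vgf, Nptx2, Homer1, Inhba, Nrn1 and Rheb), whereas it was the highest for 16.1% of all tested genes. It was also the deepest library, with 39420219 expected counts, and the B6 KD library with the least reduced Hp1bp3. The part of either in these values was not tested.

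The median log2 ratio of the 10 genes to the Ctrl mean was 1.08 in B6 KD 3 and 0.61 in D2 KD 1. In the other 4 KD libraries it lay between -0.05 and 0.12. Interferon response genes, which mark an antiviral state, had their highest sums in other libraries. Their summed level (15 of 15 genes measured) was 127 to 144 CPM in B6 Ctrl and 1274, 1632 and 598 CPM in B6 KD 1, 2 and 3. In B6 edgeR called 13 of the 15 higher, beside 1.76% of all tested genes. Those calls did not hold with the library total or the choroid plexus score as a covariate, where edgeR called 0 genes in B6. The same was so without any 1 of B6 Ctrl 1, B6 Ctrl 3, B6 KD 1, B6 KD 2 or D2 Ctrl 1. The D2 sums were 140.4 to 314 CPM in Ctrl and 458, 640.2 and 161 CPM in KD 1, 2 and 3. Microglia markers (8 of 8 measured, none at 0) summed to 319 to 373 CPM in B6 Ctrl and to 762, 743 and 468 CPM in B6 KD 1, 2 and 3. B6 KD 3, the highest library for 7 of the 10 genes, was thus the lowest B6 KD library for both lists, and the part of these lists in the values of Bdnf was not tested.

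**Figure D3:**
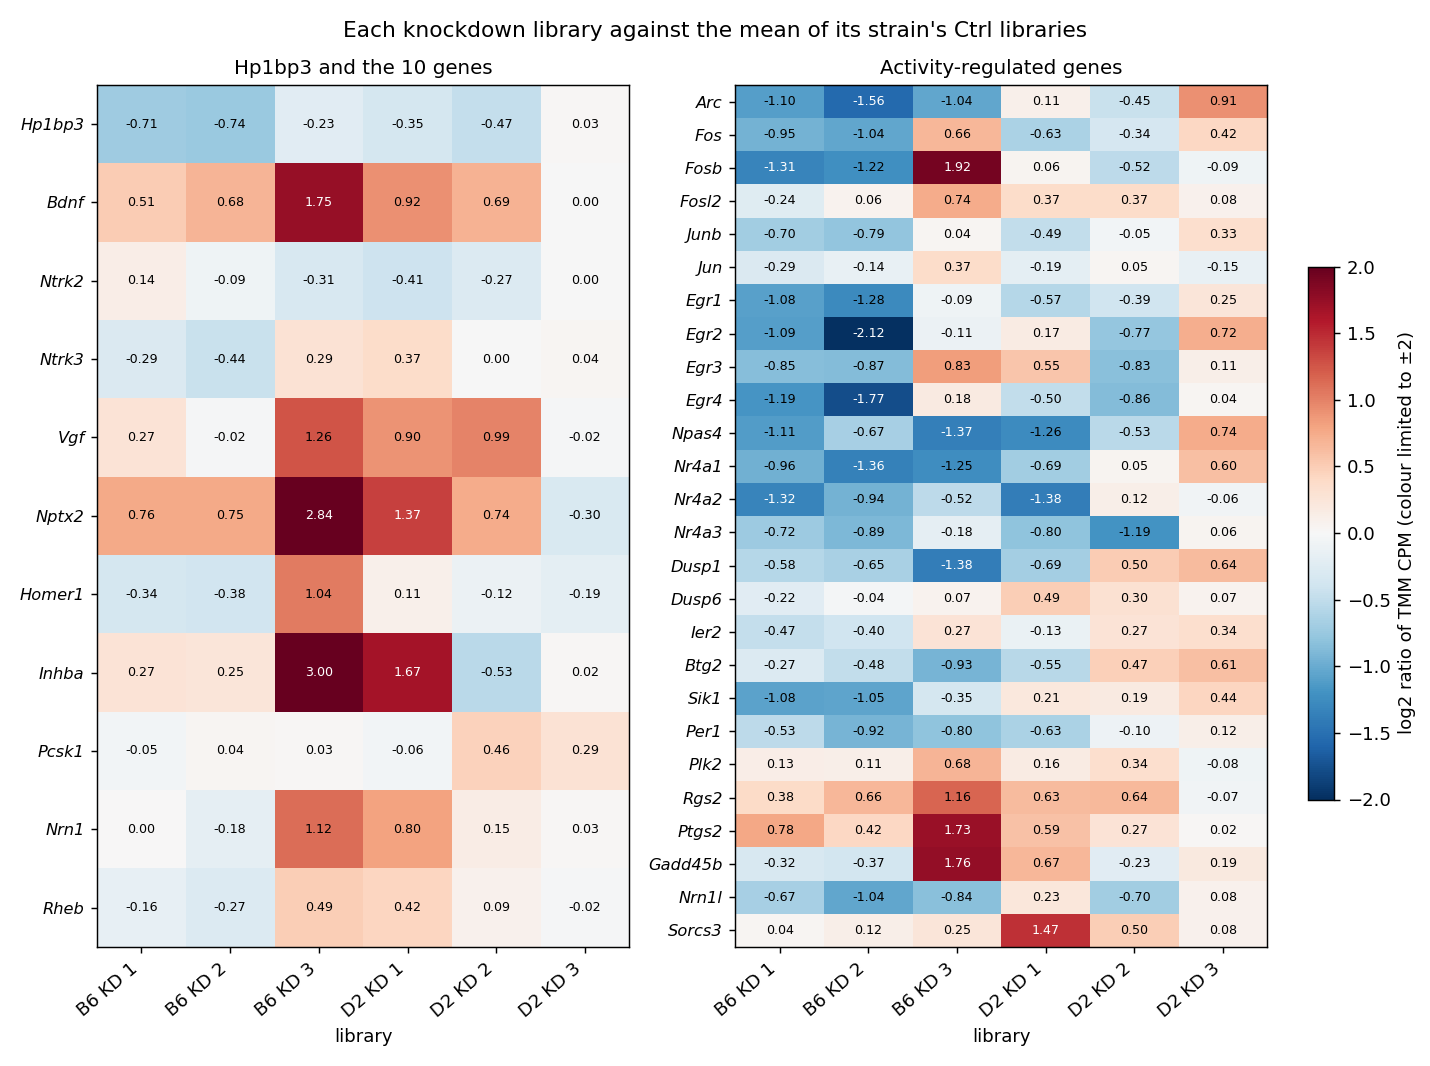
Log2 ratio of TMM CPM in each of the 6 KD libraries (columns) to the mean of the 3 Ctrl libraries of the same strain, for Hp1bp3 and the 10 genes (left) and 26 activity-regulated genes (right); red is higher, blue is lower, and the colour stops at 2 either way. Bdnf and Nptx2 are red in 5 of 6 libraries, while Arc is blue in all 3 B6 KD libraries.

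Activity-regulated transcription factors and effectors outside the 10 genes lay on both sides of Ctrl in B6, more of them below. Of 26 such genes, 18 had an estimate below 0 in B6 and 8 above it, with a median log2 change of -0.48 beside 0.00 for all tested genes. Only Per1, a clock gene that is also induced by stimulation, passed edgeR's test and fell by 0.74 ± 0.16 on the log2 scale (adjusted p = 0.0453). That call held in 3 of the 12 fits with 1 library left out (adjusted p from 0.0255 to 0.189). Arc, which encodes a synaptic protein that removes AMPA receptors, was 143, 189 and 173 CPM in B6 Ctrl and 78.4, 57.2 and 81.8 CPM in B6 KD. Those groups did not overlap, and the change was -1.21 ± 0.30 (adjusted p = 0.0556, and 0.00145 by DESeq2). By library, 3 of the 26 were above all B6 Ctrl libraries in every B6 KD library, as Bdnf was, and 7 were below them, beside 13.9% and 14.0% of all tested genes. The 7 below were Arc, Npas4, Nr4a1, Nr4a2, Nr4a3, Dusp1 and Per1, and the 3 above were Ptgs2, Rgs2 and Plk2. Both sets were chosen for naming after their values were seen. Ptgs2, the gene of cyclooxygenase-2, had a log2 change of 1.09 ± 0.35, Rgs2, a regulator of G protein signalling, 0.77 ± 0.23 and Plk2, a kinase gene, 0.33 ± 0.15 (edgeR adjusted p = 0.112, 0.0931 and 0.251). In D2, Arc was 92.4, 61.3 and 72.1 CPM in Ctrl and 81.0, 55.07 and 141 CPM in KD, a change of 0.30 ± 0.30 (adjusted p = 1) that was -0.15 without the library labelled D2 KD 3.

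Library by library, 19 of the 26 genes lay below all B6 Ctrl libraries in B6 KD 1 and 18 in B6 KD 2, beside 32.2% and 35.7% of all tested genes, and 3 lay above in each. In B6 KD 3 it was 8 below and 11 above, beside 36.8% and 37.8%. In D2 KD 1 and D2 KD 2 it was 8 below and 9 above in each, beside 24.3% and 26.6%, and 23.8% and 28.5%. In the library labelled D2 KD 3 it was 1 below and 13 above, beside 18.8% and 17.7%. Between the strains in Ctrl, edgeR called 5 of the 26 lower in D2 and none higher: Nr4a3, Nr4a1, Arc, Egr2 and Dusp1. Among all tested genes 8.75% were called lower and 5.23% higher. With each library left out in turn these calls held in 12, 10, 8, 7 and 3 of 12 fits. Nr4a3, a nuclear receptor gene, was 119 ± 18.6 CPM in B6 Ctrl and 26.4 ± 14.7 in D2 Ctrl, a log2 difference of -2.17 ± 0.45 (adjusted p = 0.00694). Bdnf itself differed by -0.21 ± 0.32 in the same comparison (adjusted p = 0.781), and its libraries overlapped. In KD, Nr4a3 and Ptgs2 were called lower in D2, in 12 and 9 of the 12 fits. These 2 of the 26 stood beside 9.05% of all tested genes called lower, so the count was near the background.

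Across the 12 libraries the level of Bdnf was related to that of Nptx2 and Vgf. The share of all tested genes with as high an r is not given here, so the relation cannot be called particular to them. On log2 CPM, Pearson's r with Bdnf was 0.94 for Nptx2 (permutation p = 9.00e-05, adjusted over 9 genes 0.00081) and 0.84 for Vgf (permutation p = 0.00115, adjusted 0.00517). Spearman's rho was 0.87 (permutation p = 0.00061, adjusted 0.00549) and 0.73 (permutation p = 0.00863, adjusted 0.0388). Leaving out B6 KD 3 and D2 KD 1, the 2 libraries farthest from the median of Bdnf, r was 0.80 for Nptx2 and 0.56 for Vgf. The relation of Vgf no longer passed without B6 KD 3 alone (r = 0.68, permutation p adjusted 0.0903), and that of Nptx2 passed with any 1 library left out (r from 0.84 to 0.95). Within strains r was 0.97 and 0.98 for Nptx2 and 0.90 and 0.86 for Vgf, in B6 and D2 (n = 6 each). In the 7 libraries with many choroid plexus transcripts it was 0.95 and 0.88, and the other 5 were too few. The 12 libraries include both treatments and both strains, and the permutations did not keep the groups apart. The relation over all 12 libraries therefore mixes differences between groups with differences between mice of a group. On deviations from group means r was 0.96 for Nptx2 and 0.84 for Vgf.

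For Nrn1 the relation rested on those 2 libraries. Its r was 0.77 (permutation p = 0.0107, adjusted 0.0322) and rho 0.40 (permutation p = 0.201, adjusted 0.603), and r was -0.12 without them, 0.41 without B6 KD 3 alone (permutation p adjusted 0.636) and 0.78 without D2 KD 1 alone (permutation p adjusted 0.121). Inhba (r = 0.69), Rheb (0.64) and Homer1 (0.58) did not pass after adjustment (permutation p adjusted 0.0505, 0.058 and 0.0952). Inhba passed without any 1 of B6 KD 1, B6 KD 2, D2 Ctrl 1, D2 Ctrl 2 or D2 KD 2 (r from 0.72 to 0.76), and Rheb without B6 KD 1 or B6 KD 2 (r of 0.69 and 0.80). Without the 2 libraries their r was -0.38, -0.41 and -0.27 in this order. Their rho was 0.16, 0.29 and 0.16 (permutation p adjusted 0.62 for each). For Ntrk2, Ntrk3 and Pcsk1 r was -0.24, -0.14 and 0.10 (permutation p adjusted 0.583, 0.737 and 0.737) and rho was -0.25, -0.24 and -0.22 (permutation p adjusted 0.62 for each). As a description, r with Bdnf was -0.59 within B6 and -0.95 within D2 for Ntrk2, and 0.30 and 0.62 for Ntrk3 (n = 6 each). Without the 2 libraries it was 0.11 for Ntrk2 and -0.65 for Ntrk3. On deviations from group means r was 0.84 for Nrn1, 0.83 for Rheb, 0.75 for Inhba, 0.67 for Homer1, 0.76 for Ntrk3, -0.76 for Ntrk2 and -0.18 for Pcsk1.

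**Figure D4:**
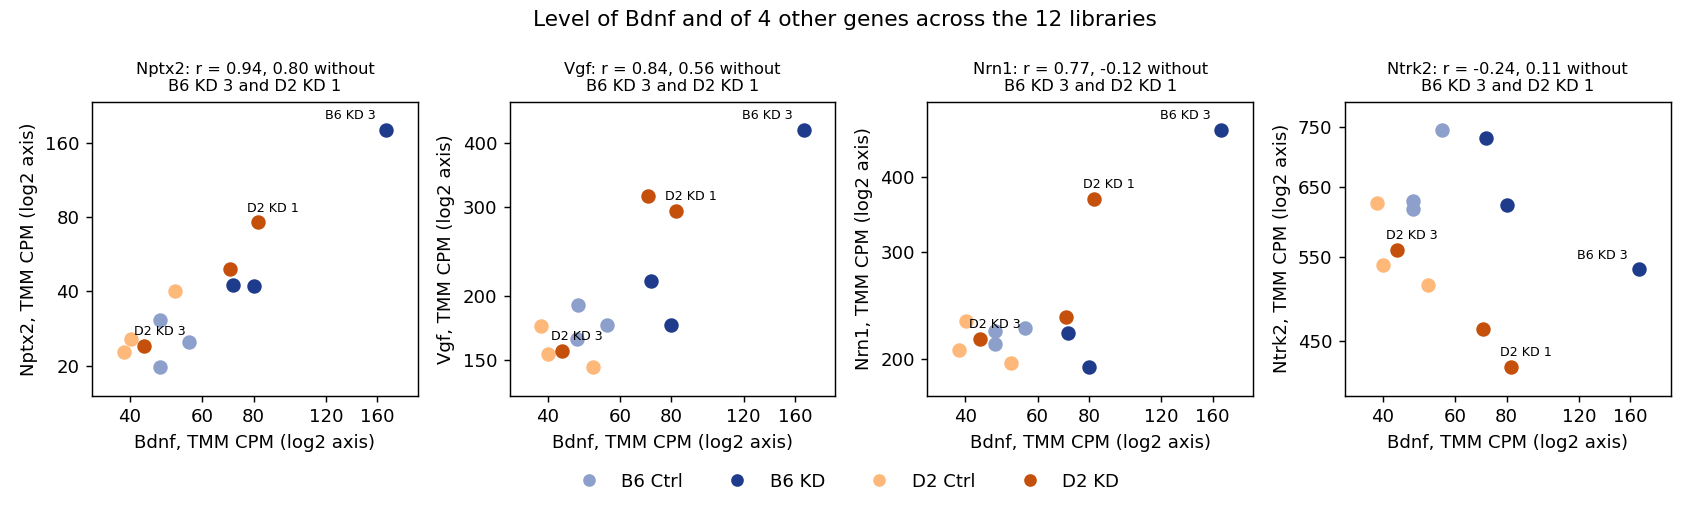
Level of Nptx2, Vgf, Nrn1 and Ntrk2 (vertical log2 axes, TMM CPM) against that of Bdnf (horizontal log2 axes, TMM CPM) in the 12 libraries, coloured by group, with 3 libraries named. The points of Nptx2 climb with Bdnf also among the libraries other than B6 KD 3 and D2 KD 1 (r = 0.80), and Nrn1 does not (r = -0.12).

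Among 11928 genes with a mean of at least 5 CPM, the 5 whose log2 level was most like that of Bdnf over the 12 libraries were Pde4b, Gcnt2, Tnc, Gars and Aldh18a1. Pde4b, a phosphodiesterase gene that degrades cAMP, had r = 0.97 and stood at 91.7 to 185 CPM. Gcnt2, a glycosyltransferase gene, had r = 0.96, and Tnc, which encodes the matrix protein tenascin C, had r = 0.95 with levels from 8.13 to 63.7 CPM. Gars, the glycyl-tRNA synthetase gene, and Aldh18a1, which acts in proline synthesis, had r = 0.95 and 0.94. Without B6 KD 3 and D2 KD 1 their r was 0.96, 0.92, 0.83, 0.81 and 0.85, in the order of their first mention. All 5 were highest in B6 KD 3. They were picked from the whole table for this likeness, so no p is given.

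Of the 90 tested genes in 7 lists that surround the 10 in their pathways, 2 were called for treatment in B6 (2.22%). In D2 0 were called. The shares of all tested genes were 2.64% and 0%, so these counts were near the background. Of the neurotrophins, other receptors and sorting proteins, 11 of 12 were tested and none was called in either strain, with median log2 changes of 0.15 in B6 and 0.24 in D2. Among 23 genes of Trk signalling, Rps6ka1 alone was called in B6. It encodes a ribosomal S6 kinase below ERK, and rose from 16.0 ± 1.67 to 24.8 ± 1.59 CPM (SD, n = 3 each), a log2 change of 0.63 ± 0.13 (adjusted p = 0.041). The median of the list was -0.09 in B6 and -0.10 in D2. Among 16 genes around Rheb and mTORC1, Mlst8, a core subunit of the complex, fell in B6 from 39.6 ± 1.96 to 31.4 ± 1.43 CPM, by 0.34 ± 0.07 on the log2 scale (adjusted p = 0.0447), and the median was -0.16. The calls of Rps6ka1 and Mlst8 each held in 4 of the 12 fits with 1 library left out (adjusted p up to 0.189 and 0.188). None of the 12 genes of regulated secretion, 6 of pentraxins and AMPA receptors, 10 of Homer partners or 12 of activin signalling was called for treatment in either strain. Of the Homer partners 9 of 10 had an estimate below 0 in B6 and 10 of 10 in D2, with medians of -0.31 and -0.11.

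Between the strains, 11 of the 90 tested genes of these 7 lists were called in Ctrl and 13 in KD (12.2% and 14.4%), near the 14.0% and 15.0% of all tested genes. The sorting receptor gene Sorl1 was 431 ± 122 CPM in B6 Ctrl and 174 ± 77.4 in D2 Ctrl (log2 difference -1.31 ± 0.37, adjusted p = 0.0376). The pentraxin receptor gene Nptxr, whose product anchors NPTX2 complexes, was 1152 ± 127 CPM in B6 Ctrl and 273 ± 25.7 in D2 Ctrl (-2.08 ± 0.37, adjusted p = 0.00281). Whether both strain references held the same model of Nptxr is not given in the sources used here, and its part in this difference was not tested. Scg5, the chaperone gene of the convertase PCSK2, was 129 ± 2.51 CPM in B6 Ctrl and 338 ± 45.4 in D2 Ctrl (1.39 ± 0.11, adjusted p = 7.73e-06). Rps6, a ribosomal protein gene with near-identical copies in the genome, was listed at 18.7 ± 1.26 and 254 ± 24.9 CPM, and this value is uncertain since reads can be shared with the copies. The calls of Nptxr, Scg5 and Rps6 held whichever library was left out, and that of Sorl1 in 4 of 12 fits. In Ctrl edgeR also called Rps6kb2, Deptor, Shank2, Acvr1b and Plcg1 lower and Smad2 higher in D2, and each of these calls held in all 12 fits. The 10 genes called here were also called in KD, in the same direction, but the KD call of Acvr1b (adjusted p = 0.0499) held in 0 of the 12 fits with 1 library left out, that of Shank2 in 5 and that of Sorl1 in 8. In KD Frs3 was called higher and Rps6ka1 lower in D2 besides, in 12 and 10 of the 12 fits.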

How the data were processed

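Hippocampal mRNA of 12 mice was sequenced by the authors (KAPA mRNA Hyper Prep, Illumina HiSeq). Per the submitters' processing notes the tools were RSEM 1.2.12, Bowtie2 2.2.0 and DESeq2, and the builds GRCm38 and mm10. The authors used a strain-specific reference for the alignment. The annotation release and strand setting are not given in the sources used here. By the study's methods, reads of both sequencing runs were joined for 10 of 12 samples, and which samples is not given. Expected counts from RSEM, without normalization, were deposited for each gene, and they were rounded to whole numbers here. A table of DESeq2-normalized values from the authors was not used.

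Libraries were grouped by the strain and treatment labels, and replicate numbers follow the order of deposit and pair nothing. All replicate pairs differed beyond sampling noise (chi-square per degree of freedom 22.4 to 106), so 12 samples were counted, each taken to be 1 mouse. Genes were filtered with filterByExpr and tested with edgeR 4.0.16 in R 4.3.3 (TMM, quasi-likelihood F-test, robust, 1 mean per group, Benjamini-Hochberg over all 15853 genes, threshold 0.05). The approximate SE was obtained from the log2 change and its F statistic (absolute change over root F). The test was checked on simulated counts with the means and totals of the real libraries. Alternatives were DESeq2 1.42.0, limma-voom (limma 3.58.1), the newer edgeR method, RLE normalization, no filter, library total or choroid plexus score (mean log2 CPM of 8 markers) as a covariate, each library left out, and, chosen after seeing the data, B6 KD 3 and D2 KD 1 left out together. Correlations used log2 CPM with a prior count of 1 (alternative 5) and 2-sided permutation tests with 100000 resamples (scipy 1.17.1). Gene positions are from GENCODE M21 (GRCm38) by Ensembl identifier.

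The 10 genes and all gene lists were chosen with earlier results of these data known. Named besides them were Hp1bp3, Arc, called genes of each list (at most 4 per comparison by smallest p, extended where a count is spelled out) and the 5 genes most like Bdnf. One called gene of a list is not reported here. At these depths the spread between mice, not counting error, set the precision: Inhba, the lowest of the 10, had 86 to 1089 counts in a library. Where the labels do not say that mice came from separate litters, p-values measure the spread between these samples.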

Additional observations from a re-analysis of the deposited data

How the results depend on the processing

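The values below cover the log2 changes and correlations given in the report. The count of the 10 genes called was 0 for each comparison but D2 against B6 in KD, where it was 1 (Ntrk3) in every setting. It became 1 with DESeq2 for KD in B6 (Bdnf), 1 for KD averaged over strains (Bdnf) and 1 for D2 against B6 in Ctrl (Ntrk3). Over all 15853 genes DESeq2 called 1688, 1241 and 2678 in these comparisons. With 1 library left out, or B6 KD 3 and D2 KD 1 together, the count of the 10 was 0 to 1 for KD in B6 (Ntrk3, both left out), 0 to 1 for KD averaged over strains (Bdnf, without D2 KD 3) and 0 to 1 for D2 against B6 in Ctrl (Ntrk3, without B6 KD 2, without B6 KD 3 or with both left out). The fits that called 1 of the 10 called 545 genes for KD in B6 and 799 averaged over strains. For D2 against B6 in Ctrl they called 2092, 2446 and 2423, in the order given. Pcsk1 for KD in B6 reversed to -0.015 with DESeq2 and to -0.015 with RLE normalization. Further reversals came from leaving libraries out. For KD in B6 the ranges were -0.39 to 0.010 for Ntrk3, -0.39 to 0.48 for Homer1, -0.20 to 0.33 for Pcsk1, -0.11 to 0.65 for Nrn1 and -0.24 to 0.18 for Rheb. For KD in D2 they were -0.23 to 0.094 for Homer1, -0.24 to 1.06 for Inhba, -0.10 to 0.47 for Pcsk1 and -0.15 to 0.56 for Arc. The interaction of Bdnf ranged from -0.71 to 0.0076. The correlation with Bdnf ranged from 0.68 to 0.90 for Vgf, -0.18 to 0.66 for Homer1, 0.26 to 0.76 for Inhba, -0.0054 to 0.17 for Pcsk1, 0.41 to 0.88 for Nrn1 and 0.17 to 0.80 for Rheb, and those of Ntrk2, Ntrk3 and Nptx2 kept their sign and their side of the threshold with any 1 library left out. With B6 KD 3 and D2 KD 1 both left out, r of Ntrk2 was 0.11. The cause was not tested. No paired analysis was possible because replicate numbers only follow the order of deposit. With 3 mice a group, a change of the size of that in Vgf or Nrn1 lay within the spread between libraries.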
